A study of Mus musculus with 2 samples.

Results

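Ckb, Ckmt2, Alpl, Gamt and Atp2a2 are genes of creatine and calcium cycling, chosen by exact match of their symbols in the deposited table. All 5 were found among 10761 symbols, as 8 transcript rows. The SML library came from brown adipose tissue of male C57BL6/J mice aged 8 to 12 weeks, which received SML intraperitoneally (5 mg per kg of body weight). The HFD control library came from male mice of the same strain and age without SML. Both groups were fed for 10 days on high-fat chow, in which fat supplied 60% of the calories, so no group on a standard diet enters the comparison. The title of the series names sesaminol, a sesame lignan, and the labels write SML. Each group had 1 library, and the number of animals behind each is not stated in the labels.

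Brown fat burns lipid for heat, mainly through the proton leak of Ucp1. Futile cycles are a second route to heat, in which energy from ATP is spent with no net product. In the creatine cycle, a creatine kinase transfers phosphate from ATP to creatine and a phosphatase removes it again. In mouse thermogenic fat, Ckb is the kinase and Alpl the phosphatase described for this cycle. In the calcium cycle, a SERCA pump drives calcium into the endoplasmic reticulum and release channels let it leak back. This cycle is best known from muscle and from beige fat.

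With 1 library per group there is no replicate check, no test and no p-value. Every difference below compares 2 libraries, and each interval is a 95% exact conditional binomial interval that covers counting error only. Levels are in FPKM, a measure of fragments that is adjusted for transcript length and library size. Ratios are SML over HFD control in the deposited count columns, which hold fragments scaled by the authors. By an estimate from the scale of these columns, the deposited rows hold 8503862 fragments of the SML library and 12002103 of the HFD control library. These are not the totals sequenced. A gene was called higher or lower when log2(FPKM + 1) differed by at least 1.5-fold, among 9870 genes with a mean of at least 1 FPKM. The brown fat label was checked on 15 brown adipocyte markers, all of them in the table and 13 of them past this filter. Ucp1 stood at 7955 FPKM in the SML library and 8702 FPKM in the HFD control library, and 2 of the 13 were higher, 0 lower. Zic1, a transcription factor gene and 1 of these 2, passed the filter only through the SML library. Prdm16, a transcription factor gene of brown adipocytes, was under the filter, at 0.41 FPKM in the SML library and 1.42 FPKM in the HFD control library, a ratio of 0.291 (0.192 to 0.423).

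Ckb, Alpl and Atp2a2 stood at similar levels in both libraries. The others were lower in the SML library, Ckmt2 by 22.5-fold and Gamt by 1.96-fold. Thus 2 of 5 were lower and 0 higher, where 5.74% of all 9870 genes were lower and 5.45% higher. At a 2-fold limit Ckmt2 alone was lower and 0 were higher, against 1.97% and 0.669% of all genes. The median difference of the 5 was -0.08 on the log2(FPKM + 1) scale, and that of all genes was 0. These genes were chosen with earlier results of these data known, so the share is a description of them.

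The order of levels in the SML library was Ckb, Atp2a2, Alpl, Gamt and Ckmt2. In the HFD control library it was Ckb, Atp2a2, Ckmt2, Gamt and Alpl. No spread between samples can be given for either order. Ckb was above 85.2% of all kept genes in the SML library and above 84.9% in the HFD control library. Atp2a2 was above 79.6% and 80.4%, so both were among the well-expressed genes of the tissue in each library.

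**Figure D1:**
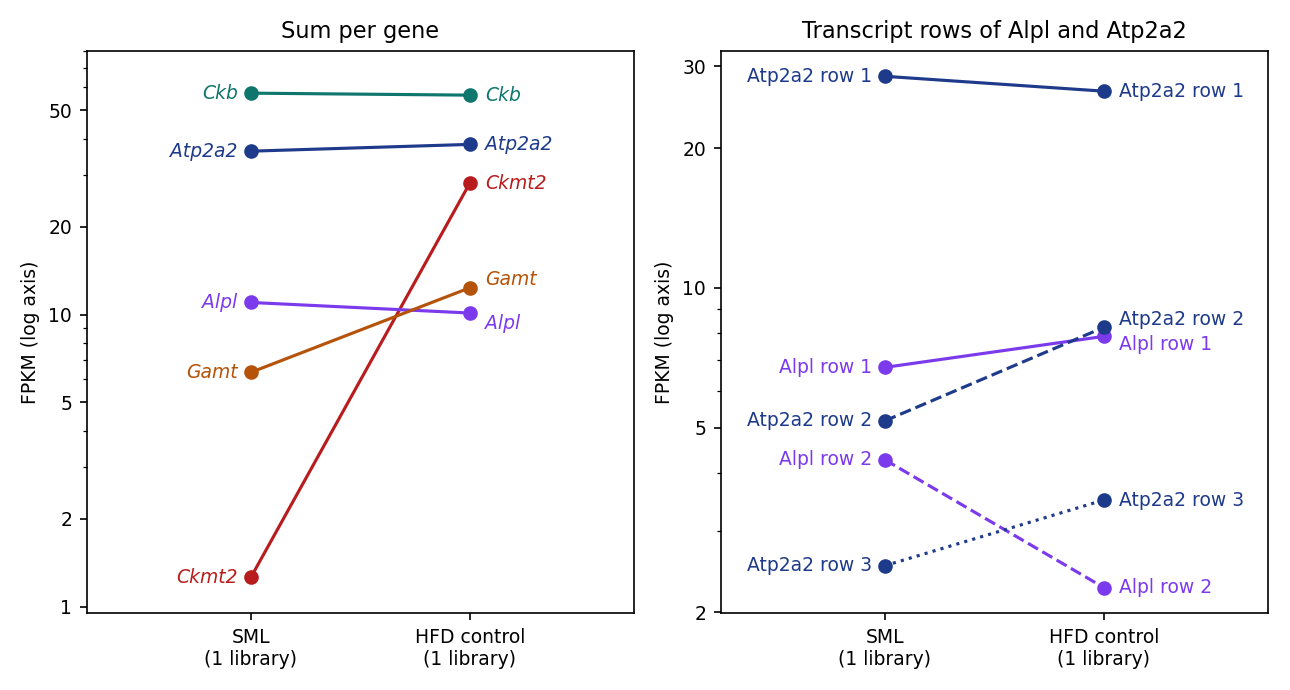
FPKM on a log axis for each gene (left) and for the separate transcript rows of Alpl and Atp2a2 (right), with 1 point per library and a line joining the 2 values of a gene or row. Ckmt2 stood at 1.26 FPKM in the SML library and 28.2 FPKM in the HFD control library, while the sums of Ckb, Alpl and Atp2a2 were nearly level.

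The sequences upstream of the annotated starts are shown for Ckb and Ckmt2, the 2 kinases among the 5 genes, and for Alpl, which has 2 annotated starts. Each is the 250 bases before the start from RefSeq, build GRCm38.p6, printed 5′ to 3′ on the minus strand, where these genes lie. Capitals mark matches on either strand to the E-box CANNTG, the TATA box TATAAA, the GC box GGGCGG or the MEF2 consensus. A match is a description of letters, not of binding.
Ckb, chr12:111672339-111672588: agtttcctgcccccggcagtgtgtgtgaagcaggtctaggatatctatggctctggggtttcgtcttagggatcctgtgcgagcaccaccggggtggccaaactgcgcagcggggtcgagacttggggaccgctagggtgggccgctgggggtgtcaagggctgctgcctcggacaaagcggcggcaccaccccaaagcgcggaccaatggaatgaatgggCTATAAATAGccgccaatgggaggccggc
Ckmt2, chr13:91876886-91877135: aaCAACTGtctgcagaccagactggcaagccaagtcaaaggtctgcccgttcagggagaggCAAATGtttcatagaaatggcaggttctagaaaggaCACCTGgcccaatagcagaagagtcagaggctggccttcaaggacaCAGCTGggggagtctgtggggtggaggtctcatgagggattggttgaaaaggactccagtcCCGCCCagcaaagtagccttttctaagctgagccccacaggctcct
Alpl, upstream start, chr4:137796385-137796634: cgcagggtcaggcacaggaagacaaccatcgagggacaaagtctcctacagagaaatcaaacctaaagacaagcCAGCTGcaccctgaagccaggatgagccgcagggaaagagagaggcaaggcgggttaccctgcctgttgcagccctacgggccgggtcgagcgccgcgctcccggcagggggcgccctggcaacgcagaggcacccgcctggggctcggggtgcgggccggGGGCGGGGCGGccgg
Alpl, downstream start, chr4:137766476-137766725: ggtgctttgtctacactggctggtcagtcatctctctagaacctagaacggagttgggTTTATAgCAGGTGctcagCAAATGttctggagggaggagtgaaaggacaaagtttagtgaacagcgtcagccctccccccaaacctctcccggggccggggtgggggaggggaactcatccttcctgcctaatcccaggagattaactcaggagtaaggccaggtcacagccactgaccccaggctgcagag
The Ckb sequence held a TATA box inside a match to the MEF2 consensus. The match covers the same bases on both strands, so it is 1 site. That consensus occurred in 2.92% of 32851 such sequences and the TATA box in 12.4%. The Ckmt2 sequence held 4 E-boxes, a motif found in 66.2% of all, and 1 GC box, found in 32.7%. GC content was 62.8% for Ckb and 54.0% for Ckmt2. At Alpl, the upstream start had a GC content of 68.4%, 1 E-box and 2 GC boxes that overlap by a base, and the downstream start had 56.0%, 2 E-boxes and 1 TATA box on the opposite strand. The estrogen-related receptor element AAGGTCA (4.08% of all) was searched too and had no match in these 4 windows, and the cAMP response core TGACG (17.8%) had 1, at the downstream Alpl start. In the same window of Gamt, not printed here, 3 GC boxes were the only matches.

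Ckb, the brain-type creatine kinase, lies on the minus strand of chromosome 12 at 111669361 to 111672338 (GRCm38, GENCODE M21). It was a single transcript row of 57.3 FPKM in the SML library and 56.4 FPKM in the HFD control library. The scaled counts were 626 and 618, from 723 and 970 fragments in the SML and HFD control libraries. Their ratio was 1.01, with an interval of 0.919 to 1.12. The interval includes 1, so counting error alone covers the gap, and Ckb was the most abundant of the 5 in both libraries.

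Ckmt2, the sarcomeric mitochondrial creatine kinase, lies on the minus strand of chromosome 13 at 91853387 to 91876885. Its single row stood at 1.26 FPKM in the SML library and 28.2 FPKM in the HFD control library. These values rest on 16 and 488 fragments, or scaled counts of 13.9 and 311. Ckmt2 was 22.5-fold lower in the SML library (13.7 to 39.6), with a difference of -3.69 on the log2(FPKM + 1) scale. Only 15 of the 9870 genes had a more negative difference, and 8 of these were among the skeletal muscle markers. An antisense gene, 1700119I11Rik, overlaps Ckmt2 in the annotation and is not in the table. The labels do not say whether strand was kept, so reads of the pair could not be told apart.

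Muscle markers were lower in the SML library, as Ckmt2 was. Of 30 skeletal muscle fibre markers, 27 were measured, and 27 of the 27 were lower in the SML library, with a median difference of -3.33. Of the 27, 6 passed the filter only through the HFD control library, where they stood at 4.45 FPKM (Myh2) to 11.6 FPKM (Myh1). The summed level of all 27 was 531 FPKM in the SML library and 5011 FPKM in the HFD control library. In scaled counts the 27 were lower by 1.56-fold for Des, the muscle intermediate filament, to 31.2-fold for Tnni1, the slow-fibre troponin I. The median was 12.9-fold. Ckmt2 lay within this range, with 1 marker showing a greater fold and 26 a smaller one. The 5 heart muscle markers, among them Myh6 and Nppa, were not in the table as used here. In bulk tissue, fewer cells of a type and less RNA per cell cannot be told apart. The part of muscle fibres in the Ckmt2 difference was not tested.

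Ckm, the cytosolic creatine kinase of muscle, stood at 21.1 FPKM in the SML library and 355 FPKM in the HFD control library, a ratio of 0.0591 (0.0519 to 0.0671). The level of Ckm was 16.7 times that of Ckmt2 in the SML library and 12.6 times in the HFD control library. Ckmt1, the ubiquitous mitochondrial form, was not in the table as used here. The 3 kinases measured summed to 79.6 FPKM in the SML library and 440 FPKM in the HFD control library. Ckb made up 71.9% of that sum in the SML library and 12.8% in the HFD control library, at an almost constant level of its own. In FPKM, Ckb stood at 45.5 times the level of Ckmt2 in the SML library, against 2.0 times in the HFD control library.

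**Figure D2:**
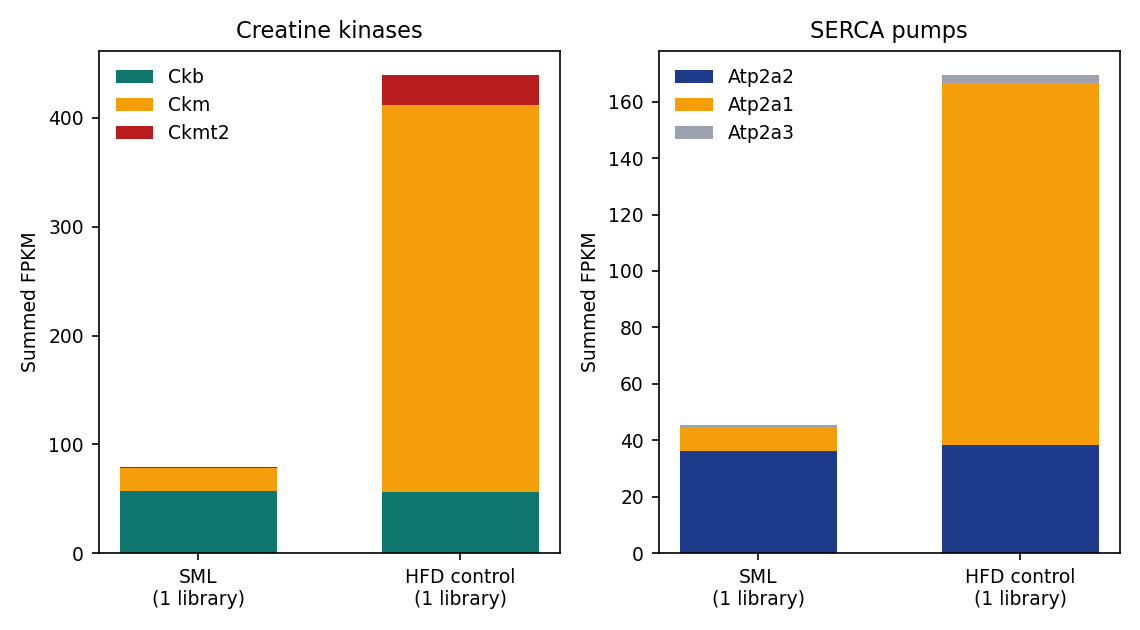
Stacked FPKM of the 3 creatine kinases measured (left) and the 3 SERCA pumps (right), with 1 bar per library. The Ckb segment (57.3 FPKM in SML, 56.4 in HFD control) and the Atp2a2 segment (36.3 and 38.2) were nearly equal, and the segments of Ckm and Atp2a1 made up most of the HFD control bars.

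Creatine is made from guanidinoacetate, which Gatm forms and Gamt methylates, and it enters cells through the transporter Slc6a8. Gamt lies on the minus strand of chromosome 10 at 80258151 to 80261012. It stood at 6.34 FPKM in the SML library and 12.4 FPKM in the HFD control library, from 47 and 125 fragments. The level in the SML library was 1.96-fold lower in scaled counts, with an interval of 1.39 to 2.80 whose lower end lies under the 1.5-fold limit. The difference was -0.86 on the log2(FPKM + 1) scale, at percentile 2.54 of all kept genes. The deposited row places Gamt in a span of 672 kb on chromosome 10, from 79697304 to 80369637, whereas the annotated gene is 2862 bp long. That span overlaps the rows of 31 other symbols, and the labels do not say how fragments were divided there.

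Slc6a8 stood at 7.95 FPKM in the SML library and 8.35 FPKM in the HFD control library, a ratio of 0.950 (0.816 to 1.11). Gatm was listed at 0 FPKM in the SML library and 1.14 FPKM in the HFD control library, although 17 and 33 fragments were counted. Its count ratio was 0.700 (0.366 to 1.29), so no difference was detectable at this depth, and the interval also holds the ratio of Gamt. With no filter Gatm, by its listed 0, brought the lower genes of its list to 4. In the list of creatine synthesis, uptake and kinases, 5 of 7 genes were measured, with 0 higher and 3 lower, namely Gamt, Ckm and Ckmt2. Of all genes 5.74% were lower. Hepatocyte markers were lower beside Gamt, a gene that liver expresses strongly. Of 7 such markers 5 were measured. Of these, 4 passed the filter only through the HFD control library, which fixed the direction of their difference but not its size. The 7 markers had a summed level of 5.87 FPKM in the SML library and 37.7 FPKM in the HFD control library. Alb, which encodes albumin, was listed at 0 FPKM in the SML library and 6.40 FPKM in the HFD control library. Their part in the Gamt difference was not tested.

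Gamt takes its methyl group from S-adenosylmethionine. Of 9 genes for methyl donor supply and recycling, 7 were measured, with 0 higher, 0 lower and a median difference of 0.04. Mat2a, which makes the donor, stood at 44.3 FPKM in the SML library and 39.8 FPKM in the HFD control library, and Ahcy, which clears its product, at 9.48 and 9.52 FPKM.

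Alpl, the tissue-nonspecific alkaline phosphatase, lies on the minus strand of chromosome 4 at 137741733 to 137796384. Its 2 rows summed to 11.0 FPKM in the SML library and 10.1 FPKM in the HFD control library, from 252 and 315 fragments. The ratio of the sums was 1.09 (0.917 to 1.29), which includes 1. The separate rows moved in opposite directions. Row 1 had 6.74 FPKM in the SML library and 7.86 FPKM in the HFD control library, a ratio of 0.856 (0.696 to 1.05). Row 2 had 4.26 FPKM in the SML library and 2.26 FPKM in the HFD control library, a ratio of 1.89 (1.37 to 2.58).

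Row 2 therefore held 38.9% of the Alpl fragments in the SML library (32.8 to 45.2) and 22.5% in the HFD control library (18.04 to 27.6), with exact binomial intervals. The 2 shares do not overlap in counting error. Scaled count per FPKM is proportional to the length used for a row, and it differed between the 2 Alpl rows by a factor of 1.01. The rows carry no reference transcript name, so neither can be tied to one of the 2 starts whose sequences are shown. The division of shared fragments between rows is an estimate by the authors' software that these intervals do not cover.

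The other alkaline phosphatase genes looked up, Alpi, Alppl2 and Akp3, were not in the table as used here. Of 8 genes in the list of alkaline phosphatases and phosphate handling, 5 were measured, with 0 higher and 0 lower. Phospho1, a phosphatase of phosphocholine and phosphoethanolamine, stood at 21.1 FPKM in the SML library and 16.7 FPKM in the HFD control library, a ratio of 1.27 (1.09 to 1.47). The pyrophosphate exporter gene Ank stood at 36.1 and 38.0 FPKM in these libraries. Alpl also marks bone cells, neutrophils and endothelium. None of 6 osteoblast markers was in the table. Of 8 neutrophil markers 2 were, with a sum of 7.55 FPKM in the SML library and 5.24 FPKM in the HFD control library. This sum rests on few fragments. S100a8 had 8 in the SML library and 3 in the HFD control library, a ratio of 3.63 (0.870 to 21.2). S100a9 had 12 and 19 in these libraries, a ratio of 0.858 (0.380 to 1.86), so both intervals include 1. The 10 endothelial markers summed to 187 FPKM in the SML library and 255 FPKM in the HFD control library, with 0 higher and 2 lower. Their part in the Alpl values was not tested.

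Mitochondrial creatine kinases draw ATP from the adenine nucleotide carriers and pass phosphocreatine through the porins of the outer membrane. Of 9 phosphotransfer genes, 8 were measured, with 0 higher and 0 lower and a median difference of -0.23. Slc25a5, an adenine nucleotide carrier, stood at 668 FPKM in the SML library and 769 FPKM in the HFD control library. Vdac1, a porin, stood at 195 FPKM in the SML library and 256 FPKM in the HFD control library, a ratio of 0.758 (0.725 to 0.793). The lowest was Ak1, an adenylate kinase abundant in muscle, at -0.51, and the highest Ak3, a mitochondrial adenylate kinase, at 0.29. None of these came near the difference of Ckmt2.

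Atp2a2 encodes SERCA2, the calcium pump of heart and slow muscle in one isoform and of most cells in another. It lies on the minus strand of chromosome 5 at 122453513 to 122502225. The 3 rows summed to 36.3 FPKM in the SML library and 38.2 FPKM in the HFD control library, from 1858 and 2601 fragments. The ratio was 0.971 (0.914 to 1.03), which includes 1.

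The Atp2a2 rows did not move alike. Row 1 had 28.6 FPKM in the SML library and 26.5 FPKM in the HFD control library, a ratio of 1.08 (1.01 to 1.15). Row 2 had 5.17 FPKM in the SML library and 8.22 FPKM in the HFD control library, and was 1.59-fold lower in scaled counts (1.35 to 1.89). Row 3 had 2.52 FPKM in the SML library and 3.49 FPKM in the HFD control library, and was 1.38-fold lower (1.09 to 1.77). Row 1 was the longest, by 1.34 times over row 2 and 1.28 times over row 3 as implied by scaled count per FPKM.

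Row 1 held 83.1% of Atp2a2 fragments in the SML library (81.3 to 84.8) and 74.97% in the HFD control library (73.3 to 76.6). Row 2 held 11.2% (9.80 to 12.7) and 17.3% (15.9 to 18.9) in these libraries, and row 3 held 5.71% (4.69 to 6.86) and 7.69% (6.69 to 8.78). The intervals of row 3 overlap and those of rows 1 and 2 do not. Muscle markers were lower in the SML library, as given above, and their part in these shares was not tested. GENCODE M21 lists 5 transcripts of the gene, 2 of them coding. The rows are not named after any of these, so which of them encodes the muscle isoform cannot be read from the table. Gm43359, Gm43360 and Gm43361 overlap Atp2a2 in the annotation and are not in the table.

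Atp2a1, the SERCA pump of fast muscle, stood at 8.12 FPKM in the SML library and 129 FPKM in the HFD control library, a ratio of 0.0631 (0.0555 to 0.0715). Atp2a3, the pump of blood cells and some epithelia, stood at 1.17 and 2.82 FPKM in these libraries, a ratio of 0.415 (0.294 to 0.568). The 3 pumps summed to 45.5 FPKM in the SML library and 170 FPKM in the HFD control library. Atp2a2 made up 79.6% of this sum in the SML library and 22.6% in the HFD control library. Sln and Mrln encode small inhibitors of SERCA in muscle. Sln, or sarcolipin, had 1 fragment in the SML library and 57 in the HFD control library, a ratio of 0.0239 (0.000593 to 0.138). Mrln, or myoregulin, had 1 and 15 fragments, a ratio of 0.0910 (0.00215 to 0.589). Of 7 genes in the list of pumps and regulators, 5 were measured and 4 were lower, where 5.74% of all genes were lower. Atp2a2 was the exception. Of the 4, Sln and Mrln passed the filter only through the HFD control library, which fixed the direction of their difference.

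Calcium leaves the reticulum through ryanodine receptors in muscle and inositol trisphosphate receptors in most other cells. Itpr2, of the second kind, stood at 9.74 FPKM in the SML library and 8.32 FPKM in the HFD control library, a ratio of 1.17 (1.08 to 1.27). Itpr1 stood at 5.87 and 5.31 FPKM in these libraries, a ratio of 1.10 (0.985 to 1.24). Ryr1, the muscle receptor, had 14 fragments in the SML library and 342 in the HFD control library, under the filter on mean FPKM. Of 12 release genes 5 were measured, with 0 higher and 1 lower, where 5.74% of all genes were lower. The lower gene was Jph2, a junction protein of muscle, at 0.77 and 3.23 FPKM in these libraries. Jph2 passed the filter only through the HFD control library.

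Among 5 calcium buffers of the reticulum 0 were higher and 3 lower, where 5.74% of all genes were lower. The 3 were Casq1, Casq2 and Hrc, proteins of the muscle reticulum. Casq2 and Hrc passed the filter only through the HFD control library, which fixed the direction of their difference. Casq1 stood at 2.55 FPKM in the SML library and 30.8 FPKM in the HFD control library. Calr, the calreticulin of most cells, stood at 209 FPKM in the SML library and 206 FPKM in the HFD control library, a ratio of 1.01 (0.969 to 1.06). In the list for calcium entry, 5 of 7 genes were measured, with 0 higher and 1 lower. This was Cacna1s, the voltage sensor of muscle, at 0.20 FPKM in the SML library and 2.84 FPKM in the HFD control library. It passed the filter only through the HFD control library. Stim1, which opens store-operated channels, stood at 19.6 FPKM in the SML library and 19.99 FPKM in the HFD control library.

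Of 9 genes of mitochondrial calcium uptake, all measured, 1 was higher and 0 lower. Their median difference was 0.02. Micu3, a regulator of the uniporter, stood at 3.26 FPKM in the SML library and 1.08 FPKM in the HFD control library, a ratio of 3.03 (2.10 to 4.42). Mcur1 and Letm1, both of the inner membrane, stayed under the 1.5-fold limit, with ratios of 1.49 (1.41 to 1.57) and 1.39 (1.33 to 1.45). Mcu, the channel itself, stood at 6.79 FPKM in the SML library and 5.66 FPKM in the HFD control library, a ratio of 1.20 (0.973 to 1.47). Among genes of calcium export, 3 of 6 were measured, and 1 was higher. This was Atp2c1, a calcium and manganese pump of the Golgi, at 4.94 FPKM in the SML library and 2.43 FPKM in the HFD control library.

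**Figure D3:**
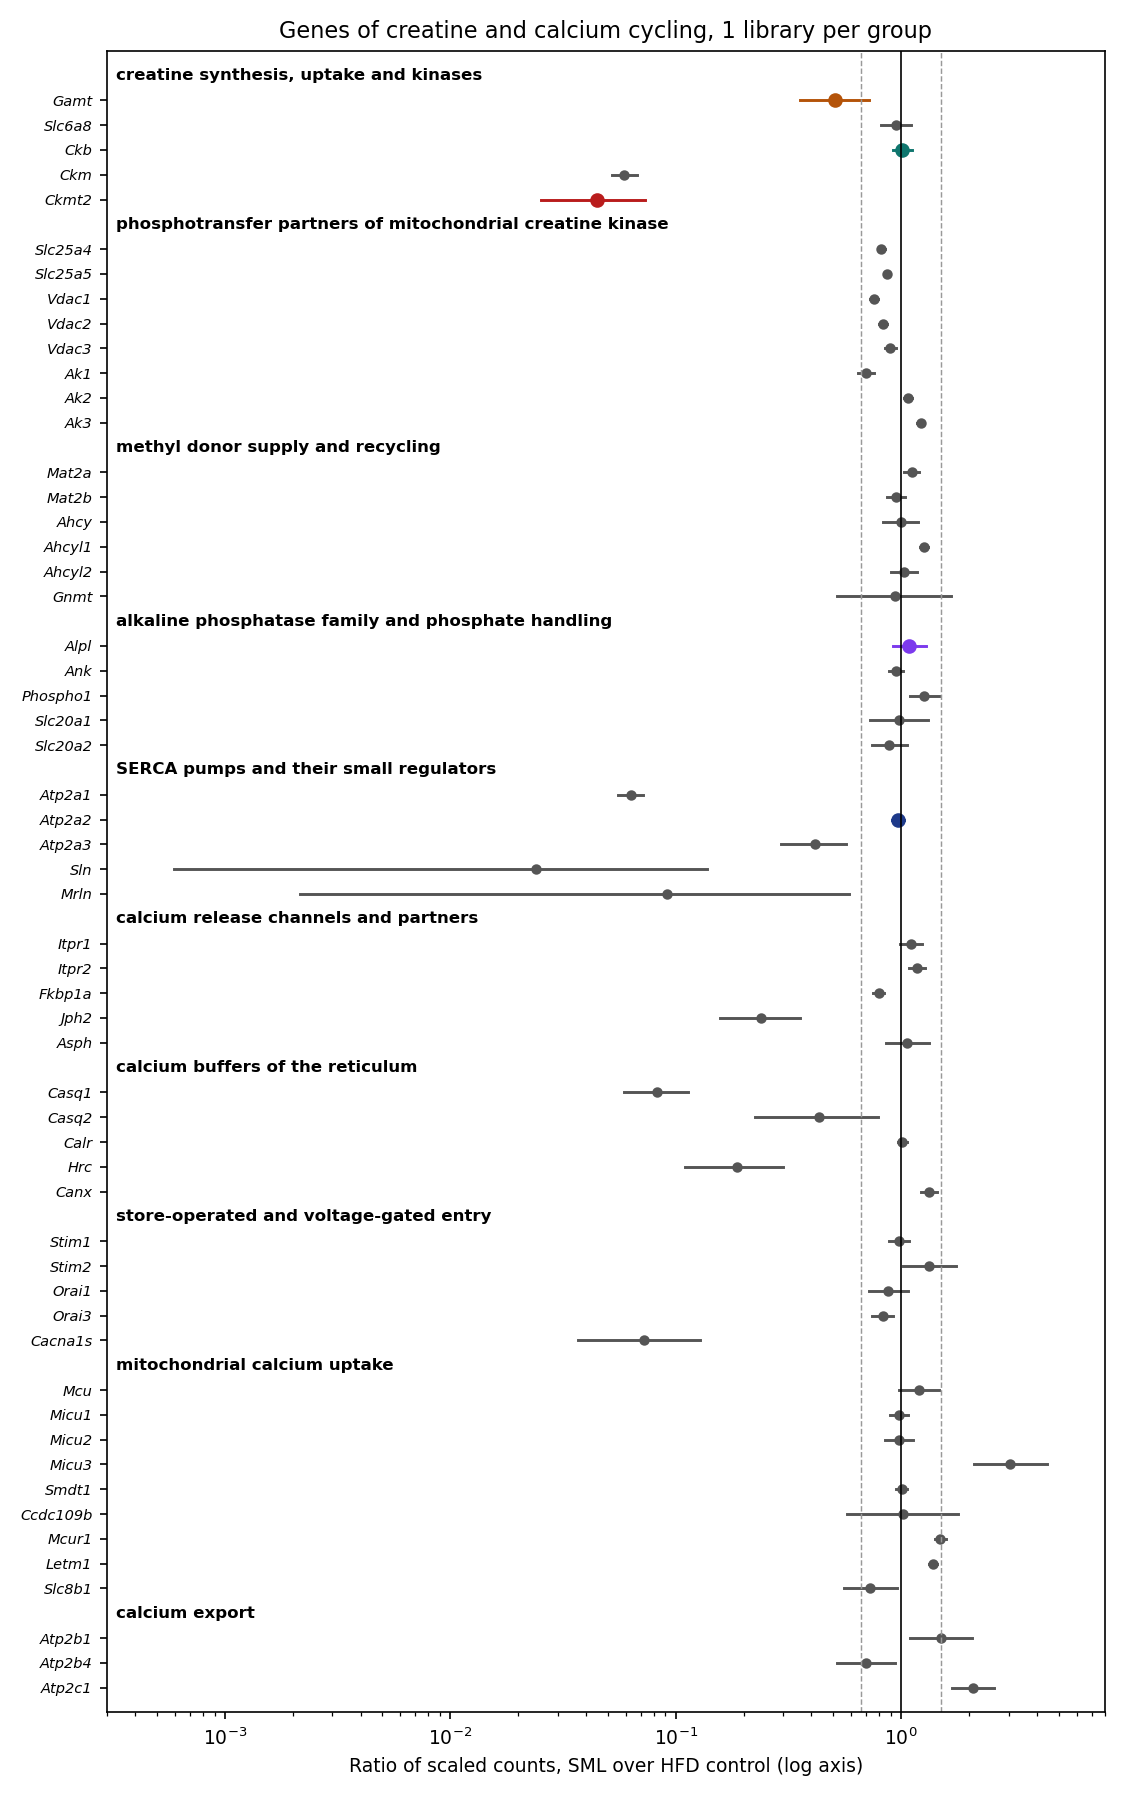
Ratio of scaled counts, SML over HFD control, on a log axis for measured genes of 10 lists, with 95% counting intervals as bars, the solid line at 1 and dashed lines at 1.5-fold either way. Ckb, Alpl and Atp2a2 (large points) sit near 1, while Ckmt2, Ckm, Atp2a1, Sln and Casq1 lie far to the left.

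Across the 10 lists, 52 genes besides the 5 were measured. Of these 2 were higher and 10 lower, where 5.45% of all genes were higher and 5.74% lower. The count of lower genes was partly set by the filter, since 6 of the 10 passed it only through the HFD control library. The 10 lower genes were Ckm, Atp2a1, Atp2a3, Sln, Mrln, Jph2, Casq1, Casq2, Hrc and Cacna1s. Ckb, a kinase also known from nerve and smooth muscle, was set beside markers of both. Of 11 neuron and glia markers 5 were measured, with 0 higher, 2 lower and a median of -0.24. Of 7 smooth muscle markers 7 were measured, with 0 higher, 0 lower and a median of 0.01. Their part in the Ckb level was not tested.

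**Figure D4:**
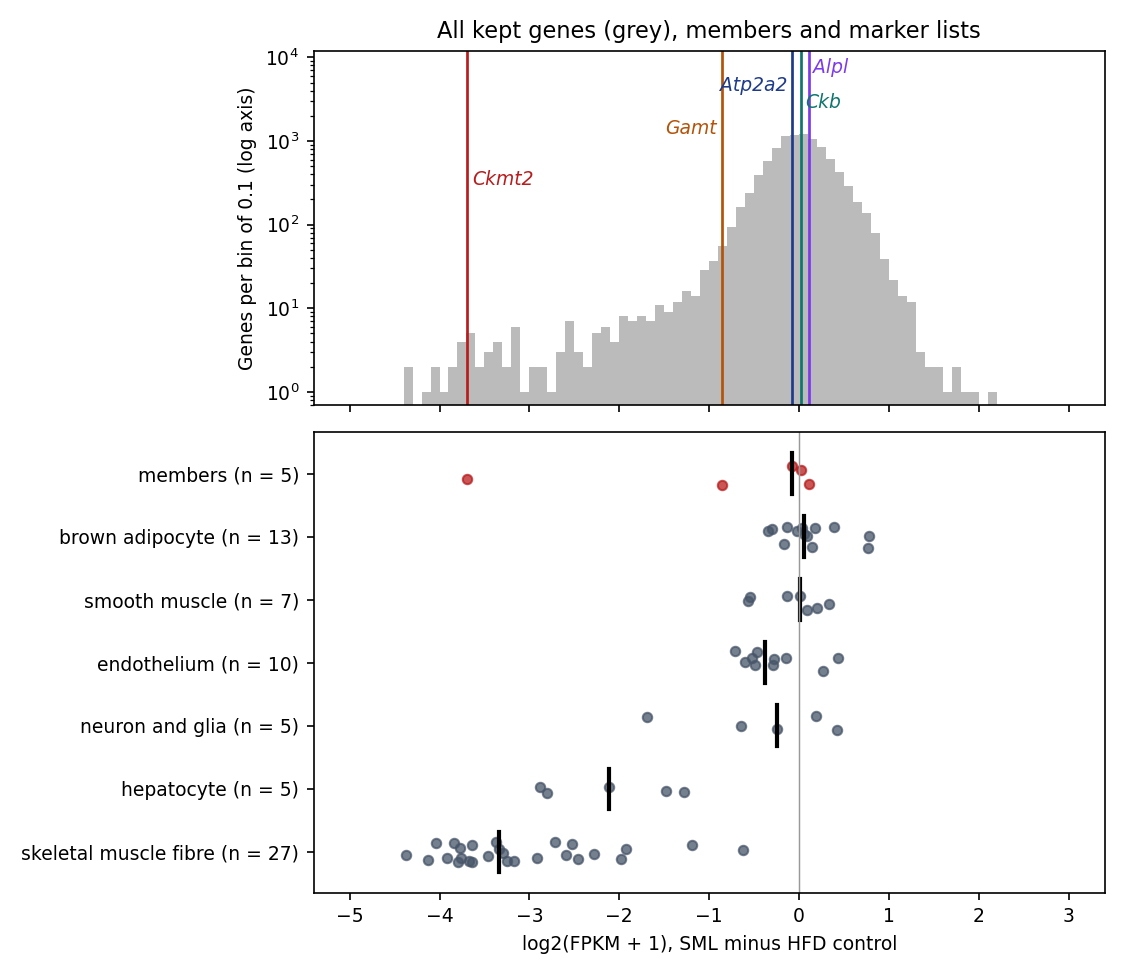
Difference in log2(FPKM + 1), SML minus HFD control, for 9870 genes as a histogram with a log count axis (top), and for the 5 genes and the measured cell type markers as points with a bar at each median (bottom). Ckmt2 at -3.69 lies among the skeletal muscle markers (median -3.33), while Ckb, Alpl and Atp2a2 lie in the centre near the brown adipocyte markers (median 0.06).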

How the data were processed

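Brown fat poly(A) RNA was sequenced from 1 library per group. The deposited table gives FPKM computed by the authors, and count columns that are a deposited scaled signal. CASAVA 1.8, Cufflinks and the mouse build mm10 are named in the submitters' processing notes, which give no aligner or annotation. Low counts moved in steps of 0.866 (SML) and 0.637 (HFD control). Taken as 1 fragment, these made 90.3% and 90.8% of 740 and 520 values of up to 20 steps whole within 0.1. Fragments are counts divided by the step, rounded, and intervals come from them. A deposited FPKM of 0 stood beside a count above 0 in 1443 SML rows and 274 HFD control rows. The 17 symbols that had become dates were left out. Rows were summed per symbol with pandas 2.3.3 and intervals made with scipy 1.17.1. All 5 genes were named, and list genes as examples; some list genes are not reported here. The members, the 10 pathway lists and the 9 marker lists were chosen with earlier results of these data known. With 2 libraries a pattern is 1 difference, so no likeness between genes was computed. Alternatives covered the pseudocount, filter, scaling, transcript rows, GC content with length, muscle markers, fold limit and zeros. GC content and length were known for 99.5% of kept genes.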

Additional observations from a re-analysis of the deposited data

How the results depend on the processing

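Ckmt2 was lower in all 11 alternatives and Gamt in all but the 2-fold limit, which left 1 of 5 lower. In each alternative 0 of 5 were higher. The changes of filter, the removal of muscle markers and the replacement of zeros alter other genes only. They left Ckmt2 at -3.69 and Gamt at -0.86, so they are no check on these 2 values. Leaving out the muscle markers does not correct Ckmt2 for muscle RNA. Over 10 alternatives the differences ran from -4.39 to -3.58 for Ckmt2 and -0.95 to -0.67 for Gamt. Ckb ran from 0.02 to 0.18, its highest value with the GC and length trend removed. With the highest row in place of the sum, Alpl turned to -0.19 and Atp2a2 to 0.10. Over all genes, higher calls numbered 847 with a pseudocount of 0.1, 883 from the count columns, 319 with the filter at 5 FPKM and 66 at 2-fold, against 538. Lower calls numbered 831 with a pseudocount of 0.1, 818 from the count columns, 1115 with no filter, 305 with the filter at 5 FPKM and 194 at 2-fold, against 567. With no filter, 3 release genes were lower. With the filter at 5 FPKM, 2 pump genes, 1 buffer gene, 0 release genes and 0 entry genes were lower, because fewer genes were tested. The share of higher among called genes was 48.7%, but 25.4% at 2-fold, 33.9% with no filter, and 57.3% with totals equal outside the 50 highest genes, where the median moved to 0.05. No paired analysis was possible because each group had 1 library. Depth limits Ckmt2 (16 SML fragments) and Gamt (47).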
